A study of Danio rerio with 28 samples.

Results

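The response of ccl34b.1+ microglia to E. coli was measured as the difference between 3 libraries of cells from fish injected with E. coli and 4 libraries of cells from fish injected with PBS, the buffer alone. These are 7 of the 28 libraries in the series, and all genes were examined. All fish of the comparison were zebrafish aged 6 months that carried TgBAC(ccl34b.1:eGFP), a green reporter under the control of a chemokine gene, and Tg(mpeg1:DsRedx), a red reporter under the control of a macrophage gene. Cells positive for both reporters (the ccl34b.1+mpeg1+ gate) were sorted from trypsin-dissociated whole brain, 100 cells per library and 1 library per fish. Of 3 technical replicates sorted from each fish and gate, the 1 sequenced was picked for its cDNA quality. The route, dose and time of the injection are not given in the sources used here. The same fish also gave ccl34b.1-mpeg1+ cells, and 2 further fish of the same age and genotype were controls with no injection named in the labels. A further 10 libraries, 5 of each gate, came from fish of the same genotype aged 4 months with no treatment named, and are used only to describe levels.

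Microglia are the resident macrophages of the brain. They sense bacterial products through pattern recognition receptors such as the Toll-like receptors, whose adaptor proteins lead to NF-kB, a transcription factor that turns on cytokines, chemokines and its own inhibitors. Activated macrophages also assemble an NADPH oxidase that makes superoxide, secrete lysozymes, and present peptides from engulfed material on MHC class II molecules. In zebrafish, ccl34b.1 marks a microglial population that also carries high levels of apolipoprotein transcripts.

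The libraries held totals of 3.14 M to 7.79 M counts after PBS and 3.66 M to 4.11 M after E. coli, with 9191 to 10141 and 8748 to 9397 genes detected. Library pairs correlated at r = 0.67 to 0.72 within the PBS group, 0.699 to 0.744 within the E. coli group and 0.591 to 0.677 between the groups (log2 CPM across genes, which are not independent replicates). Levels below are CPM, a gene's counts scaled to a fixed library total, tests are edgeR's quasi-likelihood test with Benjamini-Hochberg adjustment over all genes tested, and the threshold is an adjusted p under 0.05. A fold change is the fitted log2 value of E. coli against PBS with its SE. The SE was taken as the absolute log2 value over the square root of the test's F statistic. It thus restates the test and is not a separate measure of spread. "Rose" and "fell" are used of genes past that threshold.

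Of 12421 genes tested, 188 (1.51%) passed, of which 87 (0.700%) rose and 101 (0.813%) fell after E. coli. The libraries of the 2 groups did not overlap for 1619 genes (13.0% of those tested; 6.10% with E. coli higher and 6.93% with E. coli lower), and for 184 of the 188 called genes. The risers included genes of cytokine and chemokine signalling, of NF-kB feedback and of the oxidase, while antigen presentation, apolipoprotein and immediate early genes were among those that fell. Together the 101 genes that fell took 29.7% to 47.2% of the scaled library size after PBS and 7.86% to 10.3% after E. coli. The 87 that rose took 2.25% to 2.53% and 15.2% to 16.9%. The scaled size is the divisor of CPM, with scaling factors of 0.789 to 1.044 after PBS and 1.101 to 1.147 after E. coli. A factor under 1 makes a share larger than that of the counts themselves, and a factor above 1 makes it smaller. These sums describe genes chosen on the same values and carry no test. In bulk RNA from sorted cells, a loss of cells that express a gene and a loss of its RNA per cell cannot be told apart. The median log2 fold change over all genes tested was -0.19, the value against which gene lists are set below. The lists were not matched for level to all genes, whose median was 8.64 CPM after PBS. It was 411 CPM in the immediate early list, 157 CPM in the class II list and 35.1 CPM in the NF-kB list, and lower in others, such as 5.00 CPM for chemokines. The share called differs with level: among genes with a mean of at least 10 CPM, 236 of 5893 passed.

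**Figure D1:**
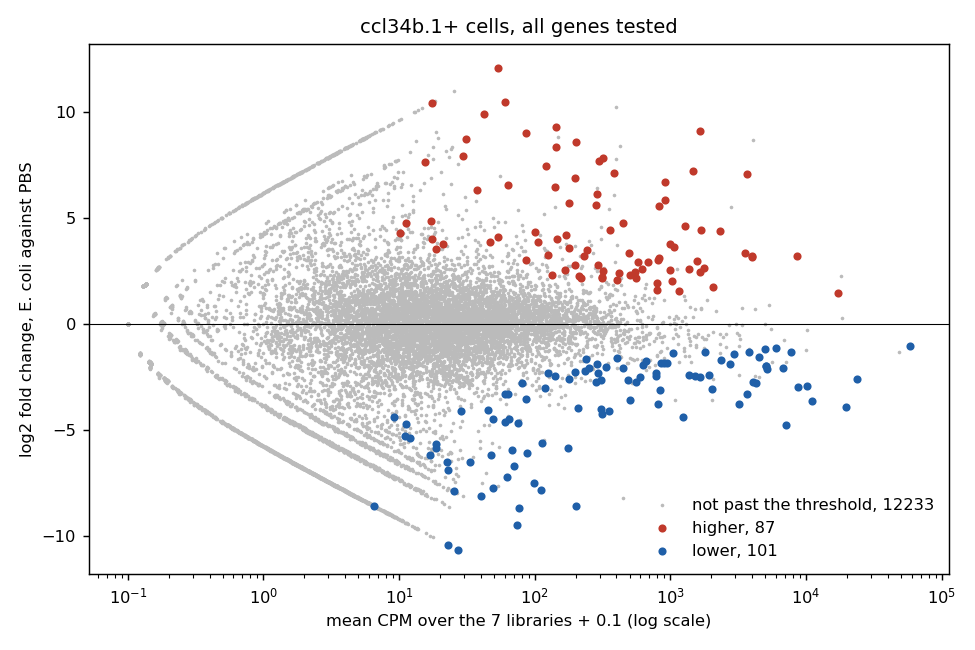
Each point is 1 of 12421 genes, with the mean CPM over the 7 libraries on a log axis and the log2 fold change of E. coli against PBS in ccl34b.1+ cells. Red points are the 87 genes that rose and blue points the 101 that fell, and many of the falling genes lie at high CPM.

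Cytokine genes came first among the secreted signals. The interleukin 1 beta gene il1b was already abundant after PBS, at 2548, 1601, 2036 and 1504 CPM in PBS libraries 1 to 4 and 15536, 23651 and 13326 CPM in E. coli libraries 1 to 3. All 3 E. coli libraries lay above all 4 PBS libraries, a 9.11-fold rise (log2 fold change 3.19 ± 0.62, SE, adjusted p = 0.0128), although the call did not hold without PBS library 2, 3 or 4 (adjusted p = 0.0576 to 0.063). It did not hold either with voom (adjusted p = 0.988), against controls in place of PBS (0.153), against a log2 threshold of 1 (0.0548) or with a replicate block over 18 libraries (0.0634). A subunit gene of interleukin 12, il12bb, was at 1.30, 1.57, 0.295 and 0.343 CPM in PBS libraries 1 to 4 and 28.5, 14.01 and 32.1 CPM in E. coli libraries 1 to 3. It rose 26.9-fold from a level near the detection limit (4.75 ± 1.02, adjusted p = 0.00752). The call did not hold with voom (adjusted p = 0.0558), in a fit of the 7 libraries alone (0.151, and 0.508 with a replicate block), in a fit of the 9 ccl34b.1+ libraries (0.174) or against controls in place of PBS (0.237). The tumor necrosis factor gene tnfa did not pass, at 29.6, 7.52, 15.1 and 1.37 CPM in PBS libraries 1 to 4 and 119, 305 and 79.8 CPM in E. coli libraries 1 to 3 (3.64 ± 1.13, adjusted p = 0.136). Of 34 cytokine and receptor genes tested, il12bb and il1b were the 2 that rose, beside 0.700% of all genes tested, and none fell, with a list median of 0.67.

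Of 27 chemokine genes tested 3 rose and none fell (all genes: 0.700% and 0.813%; list median 0.82), and the 3 belong to the CXC family. The gene cxcl8a, whose product attracts neutrophils, was at 13.7, 91.8, 4.72 and 50.1 CPM in PBS libraries 1 to 4 and 2285, 1705 and 1653 CPM in E. coli libraries 1 to 3. The PBS libraries differed widely among themselves and the E. coli libraries did not overlap them (47.0-fold, 5.55 ± 0.75, adjusted p = 3.71e-05; 6.37 without PBS library 2). Its relative cxcl8b.1 stood at 109.6, 734, 160.1 and 83.0 CPM in PBS libraries 1 to 4 and 42.3, 10.1 and 0.851 CPM in E. coli libraries 1 to 3, the other direction, and did not pass (-3.93 ± 1.31, adjusted p = 0.169). The control ccl34b.1+ libraries of cxcl8b.1 were at 15.2 and 25.6 CPM, below all 4 PBS libraries and within the range of the E. coli libraries. The CXCR3 ligand gene cxcl11.1 was at 0, 3.13, 3.84 and 6.18 CPM in PBS libraries 1 to 4 and 832, 632 and 736 CPM in E. coli libraries 1 to 3, a rise from nearly none (7.82 ± 1.39, adjusted p = 0.00803). For cxcl11.7, E. coli library 1 stood above the other two, at 93.0, 13.0 and 11.3 CPM in E. coli libraries 1 to 3 against 0.163, 7.20, 3.84 and 2.40 after PBS (3.53 ± 0.82, adjusted p = 0.0161). Its call did not hold without PBS library 3 or 4 or E. coli library 1 (adjusted p = 0.0676 to 0.373), and the value was 4.22 without PBS library 2 and 1.85 without E. coli library 1. Members of the cxcl11 family may share reads, and how reads were divided among them is not given.

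Of 20 receptors of chemoattractants tested, 1 rose and 1 fell (all genes: 0.700% and 0.813%). GPR84, a receptor for medium-chain fatty acids, was at 25.4, 43.8, 45.5 and 32.9 CPM in PBS libraries 1 to 4 and 959, 727 and 1304 CPM in E. coli libraries 1 to 3. The groups were far apart, and the gene rose 27.0-fold (4.75 ± 0.69, adjusted p = 6.09e-05). CXCR4 (ENSDARG00000041959), the receptor of the chemokine Cxcl12, was at 5859, 2136, 2190.0 and 2778 CPM in PBS libraries 1 to 4 and 358, 242 and 558 CPM in E. coli libraries 1 to 3 and fell 8.40-fold (-3.07 ± 0.67, adjusted p = 0.0228). That call did not hold without PBS library 1 or E. coli library 1, 2 or 3 (adjusted p = 0.0546 to 0.141). The remaining 18 of 20 receptor genes tested did not pass, and the list median was -0.81.

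Among genes that sense microbes, pglyrp5, a peptidoglycan recognition protein that binds bacterial cell wall, went from 0, 0.626, 0.886 and 0 CPM in PBS libraries 1 to 4 to 232, 169.7 and 199 CPM in E. coli libraries 1 to 3. The gene was close to absent in every PBS library and present in every E. coli library (9.00 ± 2.19, adjusted p = 0.0269), but its call did not hold without PBS library 1, 2, 3 or 4 (adjusted p = 0.0868 to 0.119), and the value was 9.84 without PBS library 3. The double-stranded RNA receptor gene tlr3 fell from 27.4, 0.940, 129 and 1.37 CPM to 0.231, 0.492 and 0.213 CPM, where PBS libraries 2 and 4 were themselves near 1 CPM (-6.87 ± 1.80, adjusted p = 0.0407). The tlr3 call did not hold without PBS library 1 or 3 or E. coli library 1, 2 or 3 (adjusted p = 0.0546 to 0.225), and the value was -4.88 without PBS library 3. They were the called members of 24 pattern recognition genes tested, and the other 22 did not pass (1.51% of all genes did). The 22 include the bacterial scavenger receptor gene marco, at 405, 433, 255 and 299 CPM in PBS libraries 1 to 4 and 2444, 1659 and 2279 CPM in E. coli libraries 1 to 3 (2.61 ± 0.81, adjusted p = 0.166).

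The Toll-like receptor adaptor gene MYD88 fell 3.39-fold, from 1099.7, 570.3, 1025 and 1114 CPM after PBS to 312, 246 and 285 CPM after E. coli (-1.76 ± 0.42, adjusted p = 0.0194). No library overlapped, yet the call did not hold without PBS library 1 or 4 or E. coli library 1, 2 or 3 (adjusted p = 0.0606 to 0.144). It was the single called gene of 27 in Toll-like receptor and interleukin 1 signalling (all genes: 1.51% called). Of the 27, 21 had positive values, beside 5192 of all 12421 genes tested, with a median of 0.67.

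Of 25 NF-kB factors and feedback genes 7 rose and none fell, with a median of 2.16, against 0.700% of all genes tested that rose. The gene of the NF-kB inhibitor IkB alpha, nfkbiaa, was at 134, 144, 89.2 and 41.9 CPM in PBS libraries 1 to 4 and 1595, 890.0 and 597 CPM in E. coli libraries 1 to 3. All E. coli libraries exceeded all PBS libraries (10.0-fold, 3.33 ± 0.52, adjusted p = 0.00013). TNFAIP3, the ubiquitin-editing enzyme A20, was at 6.51, 80.8, 89.8 and 3.43 CPM in PBS libraries 1 to 4 and 517, 541 and 463 CPM in E. coli libraries 1 to 3. The E. coli libraries were close together while the PBS libraries fell into low and intermediate values (3.49 ± 0.74, adjusted p = 0.00632). TNIP1, a partner of A20, rose 12.1-fold (16.8 to 39.8 CPM after PBS and 223 to 556 CPM after E. coli; 3.60 ± 0.79, adjusted p = 0.0087), a call lost without E. coli library 2 (adjusted p = 0.0886). BIRC2, a ubiquitin ligase of tumor necrosis factor signalling, rose 5.74-fold (2.52 ± 0.59, adjusted p = 0.0169), lost without PBS library 1 or 4 or E. coli library 2 (adjusted p = 0.0723 to 0.175). Feedback on cytokine receptors rose too. SOCS3 (ENSDARG00000025428), a suppressor of STAT3 signalling, was at 237, 248, 182 and 85.4 CPM in PBS libraries 1 to 4 and 999.7, 1229.8 and 839 CPM in E. coli libraries 1 to 3 (2.44 ± 0.50, adjusted p = 0.00448), with no overlap. SOCS1 was at 0.488 to 2.19 CPM after PBS and 32.7 to 44.5 CPM after E. coli (4.85 ± 1.23, adjusted p = 0.0321), and its call did not hold without PBS library 1, 2, 3 or 4 or E. coli library 1, 2 or 3 (adjusted p = 0.0536 to 0.113). ZC3H12A (ENSDARG00000101034), a nuclease that degrades cytokine transcripts, was the remaining riser, named after its values were seen (1.58 ± 0.41, adjusted p = 0.0357). It did not pass without PBS library 1, 2, 3 or 4 or E. coli library 1, 2 or 3 (adjusted p = 0.0527 to 0.16).

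Of 28 antimicrobial effector genes 7 rose and 1 fell, beside 0.700% and 0.813% of all genes tested, with a median of 1.83. The g-type lysozyme gene lygl1, whose product cleaves bacterial cell wall, had the smallest adjusted p of all genes. It stood at 200.3, 142, 135 and 219.9 CPM in PBS libraries 1 to 4 and 3762, 3638 and 3713 CPM in E. coli libraries 1 to 3. Both groups were narrow and far apart, a 21.2-fold rise (4.41 ± 0.38, adjusted p = 6.68e-09). Among genes of the NADPH oxidase, NCF1, cybb and cyba rose, while NCF4 (2.59, adjusted p = 0.609) and rac2 (0.11, adjusted p = 1) did not pass. NCF1, the cytosolic p47phox subunit, was at 284, 348, 209 and 128 CPM in PBS libraries 1 to 4 and 5413, 5730.0 and 4150.4 CPM in E. coli libraries 1 to 3 (21.1-fold, 4.40 ± 0.46, adjusted p = 2.12e-07). The membrane subunits cybb (gp91phox) and cyba (p22phox) rose 8.03-fold and 4.13-fold. For cybb the libraries were at 212, 156, 204 and 236 CPM after PBS and 1809.5, 1532 and 1526 CPM after E. coli (3.01 ± 0.44, adjusted p = 6.05e-05), and for cyba, named after its values were seen, at 363, 236, 789.6 and 358 and 2069, 1669 and 1675 CPM (2.05 ± 0.39, adjusted p = 0.00183). No library overlapped for any of the 3 that rose.

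DRAM1, an autophagy gene that takes part in defence against mycobacteria in zebrafish, was at 159, 182, 229 and 151 CPM in PBS libraries 1 to 4 and 2084, 2529 and 2072 CPM in E. coli libraries 1 to 3 (12.3-fold, 3.63 ± 0.45, adjusted p = 5.66e-06). The peroxide-reducing enzyme gene prdx1 was near absent after PBS, at 0.163, 0.626, 4.13 and 1.37 CPM, and at 399.7, 228 and 207 CPM after E. coli (7.46 ± 1.34, adjusted p = 0.000953; 8.61 without PBS library 3). With pglyrp5 these made up the 7. The faller was MPEG1, described below. FGL2, a fibrinogen-like protein of macrophages, was named after its values were seen. It was at 849.7, 1564, 595 and 496 CPM in PBS libraries 1 to 4 and 5498, 10204 and 8882 CPM in E. coli libraries 1 to 3 and rose 9.35-fold without overlap (3.23 ± 0.38, adjusted p = 2.29e-06).

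Genes of the interferon response and of secreted defence proteins were next. The antiviral GTPase genes mxf and mxc are interferon-stimulated in fish. The level of mxf went from 0.814, 5.95, 9.15 and 12.4 CPM in the PBS libraries to 4212, 3609 and 3734 CPM in the E. coli libraries, a 549-fold rise (9.10 ± 1.25, adjusted p = 0.00104). For mxc the levels were 35.8, 23.5, 8.27 and 78.2 and 2758, 1962 and 1563 CPM (5.84 ± 1.11, adjusted p = 0.0128), with a value of 6.53 without PBS library 4, and the call did not hold without PBS library 1 or 2 (adjusted p = 0.0567 to 0.0625). Paralogs of this family may share reads. Among 33 interferon-stimulated genes tested, mxc and SOCS1 were the 2 that rose, where 0.700% of all genes did, and none fell (median 0.82; mxf is not in the list). IRF7, a transcription factor of the interferon response, did not pass, at 976, 171, 177 and 231 CPM in PBS libraries 1 to 4 and 84.9, 51.1 and 147 CPM in E. coli libraries 1 to 3 (-2.04 ± 0.73, adjusted p = 0.226). The olfactomedin genes olmf4l1 and olfm4l2, whose mammalian relative is a secreted glycoprotein of neutrophil granules and gut epithelium, rose 134-fold and 102-fold. The first was at 93.5, 19.7, 31.6 and 106 CPM in PBS libraries 1 to 4 and 9104, 8598 and 7616 CPM in E. coli libraries 1 to 3 (7.07 ± 1.16, adjusted p = 0.00651), and the second at 1.30, 17.9, 24.2 and 39.5 and 2523, 2349 and 1437 CPM (6.67 ± 1.09, adjusted p = 0.00347). Of the neutrophil marker genes, lyz, npsn and cxcr1 had 0 counts in all 7 libraries, which allows up to 0.488 to 1.03 CPM in a library (3 counts). Others had counts, without passing. The gene nccrp1 was at 9.95 to 141 CPM after PBS and 33.3 to 87.2 CPM after E. coli, and mmp13a had means of 3.11 and 0.841 CPM. For illr4 there were 1 count after PBS and 51 after E. coli, with library 2 at 12.5 CPM and libraries 1 and 3 at 0 (adjusted p = 0.316).

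**Figure D2:**
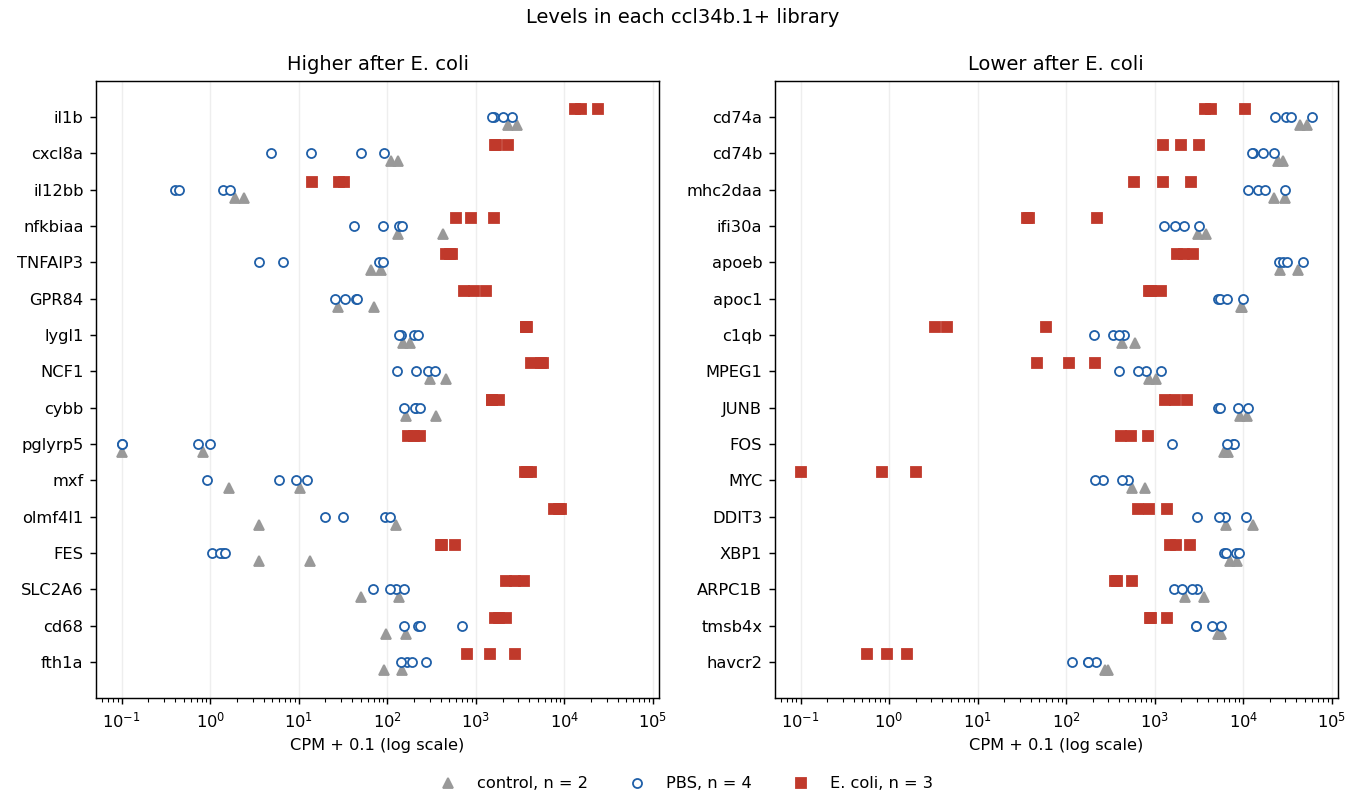
Levels of 32 genes in each ccl34b.1+ library, as CPM plus 0.1 on a log axis, with control fish as grey triangles, PBS as open circles and E. coli as red squares. The E. coli squares lie to the right of all PBS circles for the 16 genes at left and to the left of all of them for the 16 at right, and the controls lie on the PBS side of the E. coli squares.

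Of 16 class II antigen presentation genes tested 6 fell and none rose, with a median of -2.68, against 0.813% of all genes tested that fell. The invariant chain gene cd74a, which guides class II molecules through the cell, was the most abundant of them at 59989.7, 30651, 22748 and 34303 CPM in PBS libraries 1 to 4 and 10423, 3744 and 4381 CPM in E. coli libraries 1 to 3. Its E. coli libraries lay below all PBS libraries, with library 1 higher than the other two (5.97-fold lower, -2.58 ± 0.35, adjusted p = 6.51e-05; -3.19 without E. coli library 1). The second copy, cd74b, was at 22502, 12879, 12725 and 16524 CPM after PBS and 3193, 1249.5 and 1972 CPM after E. coli (-2.92 ± 0.33, adjusted p = 1.04e-06). Among the class II chain genes, mhc2daa was at 29715, 14604, 11266 and 17628 CPM in PBS libraries 1 to 4 and 2606, 587 and 1257 CPM in E. coli libraries 1 to 3 (12.3-fold lower, -3.63 ± 0.55, adjusted p = 0.00179; -4.31 without E. coli library 1). A further chain, mhc2dab, named after its values were seen, was at 19973, 12156, 9797 and 6431 and 685, 249 and 423 CPM (-4.74 ± 0.78, adjusted p = 0.00573). With voom and quality weights the calls of cd74a, cd74b and mhc2daa did not hold (adjusted p = 0.986, 0.941 and 0.971). These copies resemble each other, and how reads were divided among them is not given.

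The thiol reductase gene ifi30a, which unfolds proteins for presentation, was at 3197, 1268, 2169 and 1718 CPM in PBS libraries 1 to 4 and 226, 36.4 and 37.9 CPM in E. coli libraries 1 to 3. It fell 20.9-fold (-4.38 ± 0.62, adjusted p = 0.00013), and the value was -5.81 without E. coli library 1. The activation marker gene cd83 was at 708, 483, 553 and 891 CPM after PBS and 296, 85.3 and 92.5 CPM after E. coli (-2.06 ± 0.51, adjusted p = 0.0269; -2.89 without E. coli library 1), with a call that did not hold without PBS library 1, 3 or 4 or E. coli library 2 or 3 (adjusted p = 0.0523 to 0.226). In all 3 of ifi30a, cd83 and cd74a, E. coli library 1 kept the highest level of its group. The gene of the class II transactivator, ciita, had 735 counts over the PBS libraries and 2 over the E. coli libraries (ratio 308, 95% counting interval 84.9 to 2546), and did not pass (adjusted p = 0.068). None of 30 class I genes passed, which in a list this small is near the 1.51% of all genes tested, and their median was -0.09.

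Of 34 microglial identity genes 9 fell and 3 rose, where 0.813% of all genes tested fell and 0.700% rose, with a median of -1.62. The apolipoprotein E gene apoeb, which carries lipid in microglia, was at 25241, 28464, 31118 and 47171 CPM in PBS libraries 1 to 4 and 2733, 1782 and 2146 CPM in E. coli libraries 1 to 3. The PBS and E. coli libraries were separated by a wide gap (14.9-fold lower, -3.89 ± 0.62, adjusted p = 0.00317), and the call did not hold with voom (adjusted p = 0.939). The apolipoprotein gene apoc1 was at 9854, 5255, 5487 and 6502 CPM after PBS and 1166, 915 and 862 CPM after E. coli (6.91-fold lower, -2.79 ± 0.39, adjusted p = 3.77e-05). These were the 2 genes called of 25 in lipid transport and droplets (all genes: 1.51%), where 17 had negative values (median -0.78), beside 6736 of all 12421 genes tested. The lectin-binding gene lgals3bp.3 was at 1269, 623, 648 and 793 and 57.8, 59.7 and 90.2 CPM (-3.59 ± 0.72, adjusted p = 0.00367), and lgals3bp.1 at 20871, 10177, 11113 and 13216 and 2107, 1038 and 2150.1 CPM (-2.97 ± 0.67, adjusted p = 0.0376), both named after their values were seen. The lgals3bp.1 call did not hold without PBS library 1, 2, 3 or 4 or E. coli library 1, 2 or 3 (adjusted p = 0.0516 to 0.174).

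The sort gene ccl34b.1 was itself lower without passing the threshold. It stood at 6250.1, 3964, 4074 and 5448 CPM in PBS libraries 1 to 4 and 1537, 551 and 684 CPM in E. coli libraries 1 to 3 (-2.42 ± 0.65, adjusted p = 0.0855). The groups did not overlap. The other sort gene, MPEG1 (ENSDARG00000055290), encodes perforin-2, a pore-forming protein of macrophages, and was at 1178, 399, 797 and 656 CPM in PBS libraries 1 to 4 and 212, 46.2 and 107 CPM in E. coli libraries 1 to 3. It fell 6.22-fold (-2.64 ± 0.48, adjusted p = 0.00101; -3.31 without E. coli library 1). Cells were gated on the reporters' fluorescence and not on these transcripts. A second ID, MPEG1 (ENSDARG00000043093), had 0 counts after PBS and 58 after E. coli, and was not tested, being filtered for low counts.

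Of 12 complement genes 2 fell and none rose, beside 0.813% of all genes tested that fell, with a median of -2.14. The C1q chain gene c1qb was at 448, 206, 337 and 397 CPM in PBS libraries 1 to 4 and 58.8, 3.20 and 4.47 CPM in E. coli libraries 1 to 3. Libraries 2 and 3 held only a few CPM, and library 1 held more (15.7-fold lower, -3.97 ± 0.77, adjusted p = 0.00411; -6.49 without E. coli library 1). The chain gene c1qc was at 299, 254, 384 and 289.9 and 87.2, 28.03 and 45.7 CPM and did not pass (-2.51 ± 0.68, adjusted p = 0.0578). The integrin gene itgb2, part of the complement receptors, fell from 432, 573, 341 and 619 CPM to 118, 123 and 118 CPM (-2.03 ± 0.47, adjusted p = 0.0156). Its call did not hold without PBS library 4 or E. coli library 1, 2 or 3 (adjusted p = 0.0558 to 0.0886). The engulfment list had 1 called gene of 24, beside 1.51% of all genes: havcr2, an inhibitory receptor of the TIM family, was at 178, 217, 177 and 115 CPM after PBS and at 0.463, 1.48 and 0.851 CPM after E. coli (-7.49 ± 1.55, adjusted p = 0.00573), lost without E. coli library 1 or 3 (adjusted p = 0.0647 to 0.065).

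The 3 identity genes that rose were 2 copies of MFAP4 and AIF1L. MFAP4, an extracellular matrix protein gene that marks macrophages in zebrafish, rose at ENSDARG00000089667, from 113, 240.2, 145 and 123 CPM to 2928, 1480.1 and 1939 CPM (3.77 ± 0.51, adjusted p = 2.42e-05). The copy ENSDARG00000090783, named after its values were seen, went from 625, 1083, 896 and 1036 CPM to 7837, 6486 and 9858 CPM (3.15 ± 0.58, adjusted p = 0.00549). AIF1L, related to the microglial marker Iba1, was at 28.2, 45.4, 7.68 and 27.8 CPM after PBS and 176, 295 and 302 CPM after E. coli (3.24 ± 0.50, adjusted p = 0.000121). Reads of the MFAP4 copies may be shared. Among 36 pan-myeloid genes 4 rose, with NCF1 and cybb among them, and 4 fell (all genes: 0.700% and 0.813%; list median -0.48).

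The gate was checked against markers of other cells. The summed level of 31 microglial marker IDs was 54380 to 78987 CPM after PBS and 15997 to 22778 CPM after E. coli, with 4 IDs at 0 in all 7 libraries. A pair of genes high in ccl34b.1- cells, chosen after their values were seen, were low in the ccl34b.1+ libraries: siglec15l was at 6.18 to 14.4 CPM after PBS and 4.43 to 9.48 CPM after E. coli, against 989 to 4401 CPM in ccl34b.1- libraries of the same fish, and ccl19a.1 was at 25.6 to 81.4 and 29.4 to 37.2 CPM against 5294 to 16190 CPM. Other genes with higher levels in ccl34b.1- cells after PBS, among them FES, sema4ab and AIF1L, rose in ccl34b.1+ cells, and BATF3 had a mean of 4.72 CPM after PBS and 29.1 CPM after E. coli without passing (adjusted p = 0.27). The 7 neutrophil IDs summed to 20.2 to 141 CPM after PBS and 33.5 to 88.3 CPM after E. coli, most of it nccrp1 except in PBS library 4, where nccrp1 and mmp13a were at 9.95 CPM each. Sums of 17 T cell IDs were 293 to 375 and 91.5 to 198 CPM, most of it CCR9 (ENSDARG00000055186) and tagapa, with lck and ZAP70 at 0. NK cell IDs had 0 counts after PBS and at most 1.49 CPM after E. coli. The B cell sum was 55.5 to 195 and 417 to 866 CPM, most of it cd22, while cd79a and cd79b were near 0. Dendritic cell IDs summed to 998 to 1333 and 356 to 641 CPM. Radial glia IDs summed to 1466 to 2311 and 379 to 452 CPM, most of it the glutamine synthetase gene GLUL, with GFAP and S100B at 0. The GLUL IDs differed in direction, without passing. ENSDARG00000099776 had means of 1782 CPM after PBS and 151 CPM after E. coli, and ENSDARG00000100003 means of 37.0 and 236 CPM. The endothelial sums were 95.2 to 308 and 90.8 to 171 CPM, most of it pecam1a except in E. coli library 2. Mural sums were 174 to 471 and 44.4 to 75.3 CPM, most of it rgs5b. The oligodendrocyte sums were 44.3 to 226 and 1.97 to 248, neuronal 0 to 32.3 and 10.8 to 26.6, and erythrocyte 0 to 13.0 and 0 CPM. No member of these lists other than the dendritic and microglial ones passed. The part that other cells had in the falls and rises described here was not tested.

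Immediate early genes, which cells switch on soon after a stimulus or handling, fell in 9 of 44 cases and rose in none, beside 0.813% of all genes tested that fell, with a median of -1.55. The AP-1 gene FOS was at 7719, 1557, 7896 and 6502 CPM in PBS libraries 1 to 4 and 536, 413 and 837 CPM in E. coli libraries 1 to 3. PBS library 2 was lower than the other three and still above every E. coli library (9.94-fold lower, -3.31 ± 0.58, adjusted p = 0.00211). JUNB (ENSDARG00000074378), a partner of FOS, was at 11457, 5146, 5473 and 8645 CPM after PBS and 1307, 1683 and 2328 CPM after E. coli (-2.12 ± 0.36, adjusted p = 0.000477). JDP2 (ENSDARG00000020133), a repressor of AP-1, was at 426, 217, 1047 and 401 and 11.3, 6.88 and 65.3 CPM (-4.23 ± 0.70, adjusted p = 0.000323; -5.84 without E. coli library 3). MYC (ENSDARG00000007241), a transcription factor of growth, was at 496, 262, 213 and 432 CPM in PBS libraries 1 to 4 and 0, 0.738 and 1.91 CPM in E. coli libraries 1 to 3. The transcript was nearly undetected after E. coli (380.2-fold lower, -8.57 ± 1.40, adjusted p = 0.000854; -9.80 without E. coli library 3). The others that fell were EGR3 (-3.77 ± 0.69), the second JUNB copy (-2.08 ± 0.45), JUN (-1.86 ± 0.42), FOSL2 (-1.84 ± 0.39) and ZFP36L1 (ENSDARG00000016154; -2.74 ± 0.62), named after their values were seen. Their adjusted p-values were 0.00211, 0.0118, 0.0128, 0.00711 and 0.0128, and the calls of all but EGR3 did not hold without E. coli library 1 or 2 (adjusted p = 0.0516 to 0.128). All cells were released with trypsin before sorting, and the part of handling was not tested.

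Stress response genes of the endoplasmic reticulum fell in 3 of 43 cases and rose in none (all genes: 0.813% fell; list median -0.22, near that of all genes). DDIT3, the transcription factor CHOP, was at 10729, 2979, 6269 and 5321 CPM in PBS libraries 1 to 4 and 640.0, 859 and 1394 CPM in E. coli libraries 1 to 3. It fell 6.56-fold with no overlap (-2.71 ± 0.40, adjusted p = 8.17e-05). XBP1, which directs the unfolded protein response, was at 8286, 6135, 6418 and 8885 CPM after PBS and 1748, 1488 and 2478 CPM after E. coli (-1.96 ± 0.31, adjusted p = 0.000165). The phosphatase subunit gene ppp1r15a (GADD34) fell from 2320.3, 957, 1112 and 799.8 CPM to 393, 241 and 446 CPM (-1.85 ± 0.43, adjusted p = 0.0151), a call lost without PBS library 1 or E. coli library 1 or 2 (adjusted p = 0.0549 to 0.16). HSP90AA1 was the 1 riser of 26 heat shock genes, beside 0.700% of all genes (506 to 2049 CPM after PBS and 2106 to 5021 CPM after E. coli; 1.74 ± 0.44, adjusted p = 0.0357; 2.34 without PBS library 2). PBS library 2 lay just under the lowest E. coli library, the 2 control libraries were at 3014 and 4245 CPM, and against those controls the value was -0.09. Its call also did not hold without PBS library 1, 3 or 4 or E. coli library 2 or 3 (adjusted p = 0.0882 to 0.269).

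Among 43 myeloid transcription factors 2 fell and none rose (all genes: 0.813% fell; list median -0.41). MAF (ENSDARG00000015890), a factor of resident macrophages, was at 308, 94.3, 162 and 219.9 CPM after PBS and 0.463, 0.983 and 10.6 CPM after E. coli (-5.59 ± 1.37, adjusted p = 0.0241; -8.03 without E. coli library 3), with a call that did not hold without PBS library 1 or 4 or E. coli library 1 or 2 (adjusted p = 0.058 to 0.164). BHLHE40, a regulator of macrophage proliferation, fell 3.08-fold (365 to 722 CPM after PBS and 135 to 210.5 CPM after E. coli; -1.62 ± 0.39, adjusted p = 0.0189), lost without PBS library 1 or E. coli library 1, 2 or 3 (adjusted p = 0.0511 to 0.16). The lineage factor gene SPI1 (PU.1) was at 722 to 1182 CPM after PBS and 948 to 1550 CPM after E. coli, with overlapping libraries.

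Genes of sugar use and of the lysosome changed in a few members. SLC2A6, a hexose transporter of macrophage lysosomes, was at 126, 107, 153 and 68.6 CPM in PBS libraries 1 to 4 and 2786, 2169 and 3480.5 CPM in E. coli libraries 1 to 3. The rise was 24.7-fold without overlap (4.63 ± 0.59, adjusted p = 6.79e-06). HK2, the hexokinase that phosphorylates glucose at the start of glycolysis, rose 5.03-fold (109 to 221 CPM after PBS and 701 to 1121 CPM after E. coli; 2.33 ± 0.57, adjusted p = 0.0226), lost without PBS library 1, 2, 3 or 4 or E. coli library 2 or 3 (adjusted p = 0.0541 to 0.147). LDHB, a lactate dehydrogenase chain, fell 8.07-fold (91.8 to 271 CPM after PBS and 13.8 to 28.9 CPM after E. coli; -3.01 ± 0.79, adjusted p = 0.0393), lost without PBS library 1, 2 or 4 or E. coli library 1, 2 or 3 (adjusted p = 0.0768 to 0.221). These were the 3 called of 30 glycolysis and glucose transport genes (all genes: 1.51%; list median 0.51).

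Of 80 lysosomal genes 3 rose and 1 fell (median 0.44), beside 0.700% and 0.813% of all genes tested, so the 1 that fell is near the share of all genes. The macrophage lysosomal glycoprotein gene cd68 was at 220.3, 153, 700.2 and 236 CPM in PBS libraries 1 to 4 and 2179, 1638 and 1838 CPM in E. coli libraries 1 to 3. PBS library 3 stood apart from the other PBS libraries and below all E. coli libraries (5.76-fold, 2.53 ± 0.47, adjusted p = 0.00137; 3.21 without PBS library 3). Subunits of the proton pump that acidifies lysosomes rose: ATP6V0B went from 199, 138, 232 and 323 CPM to 1021, 967 and 996 CPM (2.16 ± 0.46, adjusted p = 0.00731), and TCIRG1 (ENSDARG00000105142) rose 3.78-fold (1.92 ± 0.49, adjusted p = 0.0343), lost without PBS library 1, 2, 3 or 4 or E. coli library 1, 2 or 3 (adjusted p = 0.0593 to 0.16). PSAP, the precursor of the saposins that help break down sphingolipids, fell 3.21-fold (2553 to 4548 CPM after PBS and 752 to 1612 CPM after E. coli; -1.68 ± 0.37, adjusted p = 0.00931), lost without E. coli library 2 or 3 (adjusted p = 0.101 to 0.125).

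In iron, heme and redox metabolism 3 of 43 genes rose and 1 fell (all genes: 0.700% and 0.813%; list median 0.33). The ferritin heavy chain gene fth1a, which stores iron, was at 169, 271, 189.9 and 143 CPM in PBS libraries 1 to 4 and 1451, 2729.6 and 802 CPM in E. coli libraries 1 to 3. All E. coli libraries were higher, over a wide range (8.60-fold, 3.10 ± 0.48, adjusted p = 0.000118). ALAS1, the first enzyme of heme synthesis, rose 4.21-fold (98.8 to 234 CPM after PBS and 451 to 913 CPM after E. coli; 2.08 ± 0.43, adjusted p = 0.00571), lost without E. coli library 2 (adjusted p = 0.0546). The third riser was prdx1, given above. Catalase (CAT), which breaks down hydrogen peroxide, had 1149 counts over the PBS libraries and 3 over the E. coli libraries (ratio 321, 95% counting interval 109 to 1557; adjusted p = 0.0107), a call lost without E. coli library 2 or 3 (adjusted p = 0.0695 to 0.0884).

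In 3 lists of housekeeping genes no member was called, beside 1.51% of all genes tested: none of 81 nuclear-encoded respiratory chain genes (median 0.23), none of 79 ribosomal protein genes (0.24) and none of 46 proteasome genes (0.51) passed in the edgeR test. In lists of this size such a share is few genes or none, so these counts are near it. Outside these lists, MT-CO3 and MT-CO2, cytochrome oxidase subunit genes of the mitochondrial genome named after their values were seen, fell (4299 to 8417 CPM after PBS and 2569 to 3459 CPM after E. coli and -1.19 ± 0.27, adjusted p = 0.0139 for MT-CO3; 5838 to 9696 CPM after PBS and 3184 to 4133 CPM after E. coli and -1.13 ± 0.29, adjusted p = 0.0336 for MT-CO2). The MT-CO3 call did not hold without PBS library 1 or E. coli library 2 or 3 (adjusted p = 0.0674 to 0.136), nor that of MT-CO2 without PBS library 1 or 4 or E. coli library 1, 2 or 3 (adjusted p = 0.0659 to 0.2). Sterol synthesis genes had positive values in 22 of 25 cases (median 1.47) with none past the threshold. Over all 12421 genes tested, 5192 had positive and 6736 negative values. The cell cycle list had negative values in 27 of 30 cases (median -3.57), also with none past the threshold. Most of its members were at low levels. Among them MCM3, a replication helicase gene, had 191 counts summed over the PBS libraries and 0 after E. coli. On these sums it was at least 53.3-fold lower, without passing (adjusted p = 0.238). PBS libraries 1 to 4 were at 0.163, 31.0, 2.07 and 28.8 CPM, so the bound does not hold for each library. PBS library 1 lay under the 3-count floor of the E. coli libraries (0.638 to 0.738 CPM).

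Of 55 genes of the actin cytoskeleton 7 fell and 2 rose (all genes: 0.813% and 0.700%; list median -0.66). ARPC1B, a subunit of the Arp2/3 complex that branches actin filaments, was at 3026, 1649, 2045 and 2623 CPM in PBS libraries 1 to 4 and 555, 371 and 358 CPM in E. coli libraries 1 to 3. It fell 5.46-fold (-2.45 ± 0.35, adjusted p = 5.18e-05). The Arp2/3 subunit ARPC5 (ENSDARG00000019062) was at 208, 82.7, 127 and 91.6 CPM after PBS and 3.01, 2.95 and 9.15 CPM after E. coli (-4.65 ± 0.70, adjusted p = 0.0001; -5.40 without E. coli library 3), and the actin-sequestering gene tmsb4x fell 3.75-fold (2953 to 5578 CPM after PBS and 889 to 1384 CPM after E. coli; -1.91 ± 0.29, adjusted p = 0.000118). Among the risers was sdcbp2, a syntenin scaffold protein, at 352, 595, 326 and 342 CPM in PBS libraries 1 to 4 and 3165, 3204 and 3039 CPM in E. coli libraries 1 to 3 (7.76-fold, 2.96 ± 0.36, adjusted p = 5.64e-06).

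Of 31 apoptosis genes 2 rose and 1 fell (all genes: 0.700% and 0.813%; list median -0.26). The survival gene mcl1a was at 11734, 7901, 8523 and 13563 CPM in PBS libraries 1 to 4 and 3930.2, 4333 and 4203 CPM in E. coli libraries 1 to 3, a 2.51-fold fall with no overlap (-1.33 ± 0.28, adjusted p = 0.00632). The BH3-only gene pmaip1 (Noxa), which opposes it, rose 2.98-fold (295 to 891 CPM after PBS and 1195 to 2328 CPM after E. coli; 1.58 ± 0.41, adjusted p = 0.0415), lost without PBS library 2, 3 or 4 or E. coli library 1 or 2 (adjusted p = 0.0972 to 0.218). The other riser was BIRC2, given above. Outside this list, bcl2l12, a relative of the BCL2 family, went from 0.163, 0, 0.591 and 1.37 CPM to 345, 355 and 309 CPM (9.29 ± 1.80, adjusted p = 0.00284; 10.26 without PBS library 4).

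Several of the largest changes were in genes that no list held. FES, a tyrosine kinase of myeloid cells, was at 1.30, 0.940, 1.18 and 1.37 CPM in PBS libraries 1 to 4 and 418, 579 and 400.3 CPM in E. coli libraries 1 to 3. It was close to absent in all 4 PBS libraries and rose 378-fold (8.56 ± 0.80, adjusted p = 2.58e-08). The control libraries were at 3.42 and 13.3 CPM, and against them the value was 5.79. The semaphorin gene sema4ab was at 48.4, 47.0, 32.8 and 19.9 CPM after PBS and 612, 946 and 817 CPM after E. coli (21.4-fold, 4.42 ± 0.56, adjusted p = 5.66e-06). Its control libraries were at 100 and 202 CPM, above all 4 PBS libraries, and against them the value was 2.39 (adjusted p = 0.0778). The tumor necrosis factor receptor family gene tnfrsf18 (GITR) rose from 0.977, 2.51, 2.07 and 0.686 CPM to 159, 156 and 123 CPM (6.53 ± 1.38, adjusted p = 0.0148), lost without PBS library 1, 2, 3 or 4 (adjusted p = 0.0508 to 0.093). In control fish it was at 96.8 and 15.5 CPM.

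Some rises were from groups with no or nearly no counts, so their size is given only as a bound or a ratio of summed counts. These bounds and intervals cover counting error and not the spread between fish, and need not hold for each library. The claudin gene cldni had 0 counts after PBS and 47.0, 313 and 17.4 CPM in E. coli libraries 1 to 3. On summed counts it was at least 619.8-fold higher, with most counts in library 2 (adjusted p = 0.0154), so the bound does not describe libraries 1 and 3. The call did not hold without PBS library 1 or E. coli library 2 (adjusted p = 0.0546 to 0.198). SERPINE2, a serine protease inhibitor and the 1 called of 14 matrix protease genes (all genes: 1.51%), also had 0 counts after PBS and 23.6, 41.1 and 56.6 CPM after E. coli, at least 213-fold (adjusted p = 0.025), lost without PBS library 1, 2, 3 or 4 or E. coli library 2 or 3 (adjusted p = 0.0651 to 0.0868). The sulfotransferase gene sult2st3 had 1 count after PBS, in library 3, and 1784 after E. coli (ratio 2131, 95% counting interval 382 to 84201; adjusted p = 0.00866), lost without E. coli library 2 (adjusted p = 0.148). For afap1l1b, an actin filament adaptor, 2 and 928 counts were found (ratio 554, 95% counting interval 153 to 4583; adjusted p = 0.0128), with both PBS counts in library 3 and E. coli library 1 at 2.31 CPM, lost without PBS library 1, 2 or 4 or E. coli library 2 (adjusted p = 0.0505 to 0.0709). For tmem116 there were 2 and 456 counts (ratio 272, 95% counting interval 74.9 to 2255; adjusted p = 0.0232), lost without PBS library 1, 2, 3 or 4 or E. coli library 2 (adjusted p = 0.058 to 0.0938). TP53INP1, a p53-induced autophagy gene, was at 0 to 0.651 CPM after PBS and 43.4 to 87.7 CPM after E. coli (7.90 ± 2.11, adjusted p = 0.0464; 9.01 without PBS library 1), lost without PBS library 1, 2, 3 or 4 or E. coli library 1, 2 or 3 (adjusted p = 0.0849 to 0.147).

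Among the falls, TTYH3 (ENSDARG00000034473), a chloride channel, was at 147, 63.6, 186 and 92.3 CPM in PBS libraries 1 to 4 and 0.925, 1.72 and 0.851 CPM in E. coli libraries 1 to 3 (103-fold lower, -6.68 ± 0.83, adjusted p = 5.66e-06). The transmembrane gene TMEM59 was at 45.6 to 231 CPM after PBS and 1.06 to 3.44 CPM after E. coli (-6.08 ± 1.03, adjusted p = 0.000426), the Notch target HES4 at 10.3 to 49.3 CPM after PBS and 0.246 to 0.463 CPM after E. coli (-6.16 ± 1.07, adjusted p = 0.000637), and the cytokine gene tnfsf12 (TWEAK) at 75.5 to 282 CPM after PBS and 0.463 to 1.06 CPM after E. coli (-7.82 ± 1.34, adjusted p = 0.000535). None of these 4 calls was lost without any 1 library, and that of HES4 was lost with the 7 libraries alone (adjusted p = 0.0715, and 0.297 with a replicate block). ZNF76 and FRS2 (ENSDARG00000037353), a zinc finger factor and a receptor adaptor, had 740 and 724 counts after PBS and 0 after E. coli, at least 207-fold and 202-fold lower on summed counts. Their adjusted p-values were 0.0307 and 0.0247, and the calls did not hold without PBS library 1, 3 or 4 or E. coli library 1, 2 or 3 (adjusted p = 0.0537 to 0.152) and without PBS library 1 or E. coli library 1, 2 or 3 (adjusted p = 0.0599 to 0.136) in turn. The glutathione transferase gene GSTM3 (ENSDARG00000042533) had 743 and 2 counts (ratio 311, 95% counting interval 85.8 to 2573; adjusted p = 0.0357), lost without PBS library 1, 2 or 4 or E. coli library 1, 2 or 3 (adjusted p = 0.0547 to 0.184). The RNA-binding gene nanos1 was at 36.8 to 210.0 CPM after PBS and 0 to 0.463 CPM after E. coli (-8.65 ± 1.80, adjusted p = 0.00573), lost without E. coli library 2 (adjusted p = 0.0516), and the mitochondrial kinase gene AK3 at 80.3 to 139.5 CPM after PBS and 0.425 to 1.16 CPM after E. coli (-7.23 ± 1.72, adjusted p = 0.0191), lost without PBS library 1 or E. coli library 1, 2 or 3 (adjusted p = 0.0533 to 0.135). The histone variant gene MACROH2A2 (-6.48 ± 1.46, adjusted p = 0.0118; -7.28 without E. coli library 1) was lost without E. coli library 2 or 3 (adjusted p = 0.0791 to 0.0972), and the cohesin acetyltransferase gene ESCO2 (-7.72 ± 2.05, adjusted p = 0.0438; -6.95 without PBS library 3 and -8.43 without E. coli library 1) without PBS library 1, 2, 3 or 4 or E. coli library 1, 2 or 3 (adjusted p = 0.0576 to 0.229).

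**Figure D3:**
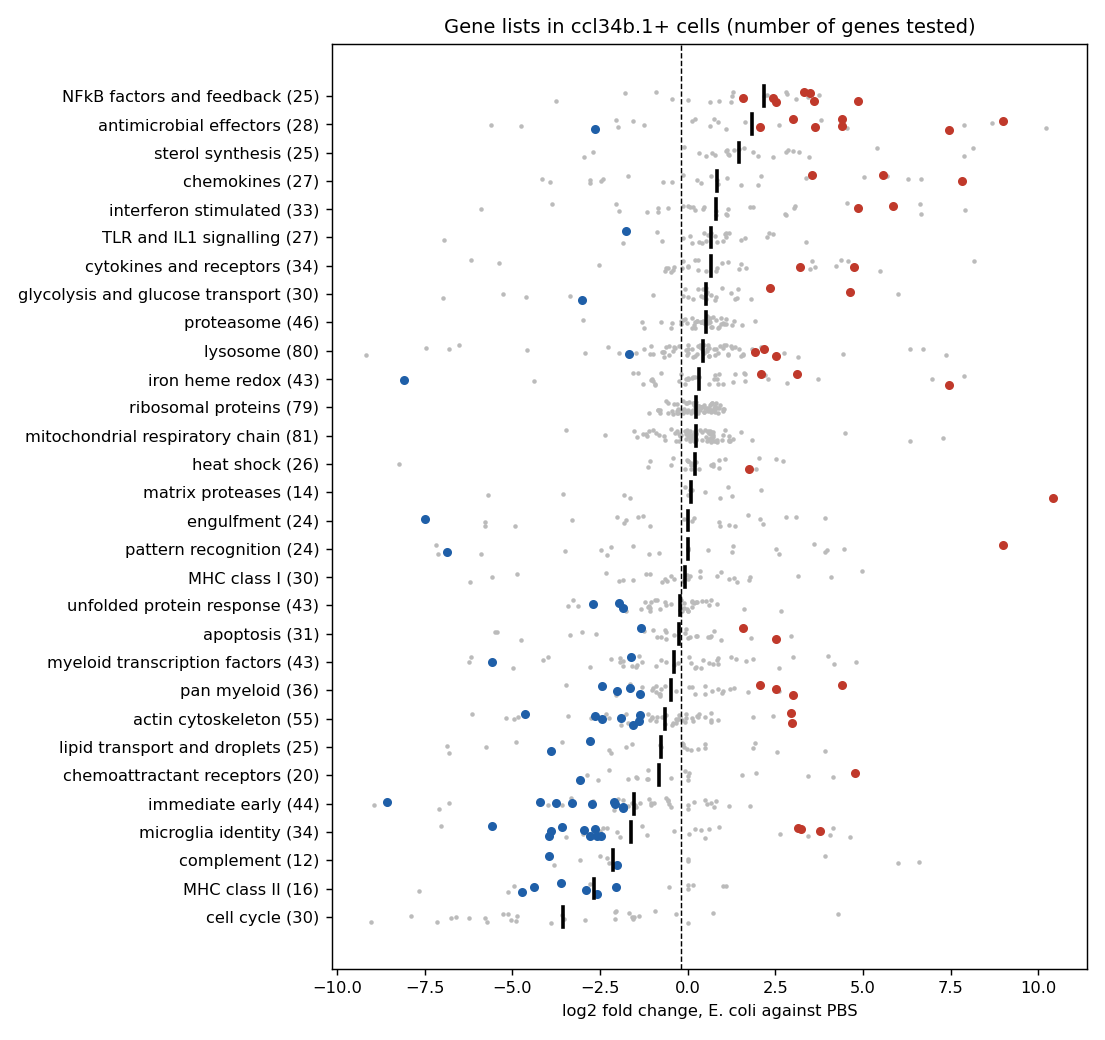
Log2 fold changes of E. coli against PBS for the tested members of 30 gene lists, with genes that rose in red, genes that fell in blue, others in grey, the median of each list as a black bar and the median of all genes, -0.19, as a dashed line. The NF-kB and antimicrobial lists hold 7 red points each, and the class II, microglia identity and immediate early lists hold 6, 9 and 9 blue points.

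Of the 86 named genes that were called, some were not called under another analysis. With voom and quality weights 27 did not pass (adjusted p = 0.0511 to 0.988), namely apoc1, apoeb, ARPC1B, BHLHE40, c1qb, cd74a, cd74b, cd83, cxcl11.7, CXCR4, DDIT3, FOS, fth1a, HSP90AA1, ifi30a, il12bb, il1b, JUNB (ENSDARG00000074378), mcl1a, mhc2daa, MPEG1, mxc, olmf4l1, PSAP, SOCS1, tlr3 and tmsb4x. Against controls in place of PBS 27 did not pass (adjusted p = 0.054 to 1), namely afap1l1b, ALAS1, BIRC2, cldni, cxcl11.1, ESCO2, FRS2, HSP90AA1, il12bb, il1b, LDHB, marcksl1a, nfkbiaa, olmf4l1, pglyrp5, pmaip1, sema4ab, SERPINE2, SOCS3, sult2st3, TCIRG1, tlr3, tmem116, TNFAIP3, tnfrsf18, TNIP1 and TP53INP1. A fit of the 7 libraries alone tested 84 of the 86 and ended the calls of cxcl11.7, HES4, HSP90AA1, il12bb, SOCS1 and TNFAIP3 (adjusted p = 0.0621 to 0.291), one of the 9 ccl34b.1+ libraries those of cxcl11.7, il12bb, SOCS1 and tlr3 (adjusted p = 0.09 to 0.245), and leaving out the filter those of BHLHE40, itgb2, LDHB and MYD88 (adjusted p = 0.0513 to 0.096). Against a log2 threshold of 1, which asks for a larger change, 26 did not pass (adjusted p = 0.0502 to 0.349). A replicate block ended 16 calls over 18 libraries (adjusted p = 0.0509 to 0.176) and 15 over 7 (adjusted p = 0.0581 to 0.766), where the number pairs no fish. With PBS and controls joined, HSP90AA1 did not pass (adjusted p = 0.152). DESeq2 size factors, a mean of at least 10 CPM and the DESeq2 test ended none of these calls, with bcl2l12 given no adjusted p by DESeq2.

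The ccl34b.1+ libraries of the 2 control fish entered the fit but not the contrast, and were set beside it. The called genes were chosen with the E. coli libraries at one end, so these values are a description. The risers took 2.33% and 2.69% of the scaled library size in the controls and the fallers 49.4% and 44.1%. The scaling factors of these 2 libraries were 0.735 and 0.779, so the shares of the counts themselves are lower. Compared with controls in place of PBS, 152 genes passed, 39 higher and 113 lower. That comparison shares the 3 E. coli libraries and the fit with the main one.

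The same contrast in ccl34b.1- cells of these fish called 50 genes (0.403% of those tested), 29 higher and 21 lower. Of the 188 genes called in ccl34b.1+ cells, 18 were called in both gates, 9.6% of the one list and 36% of the other, each in the same direction. By sign alone, called or not, 149 of the 188 (79.3%) had the same direction in ccl34b.1- cells, a share that was not counted over all genes. An interaction term asked which responses differed between the gates, and 34 genes passed (0.274%), 16 more positive and 18 more negative in ccl34b.1+ cells, of which 19 were also called in ccl34b.1+ cells. The split was 18 and 11 with DESeq2 size factors. With the fish as a block, taking equal library numbers in the gates as the same fish, 105 genes passed and 29 of the 34 were among them.

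FES had the smallest adjusted p of the interaction. Its mean was 1.20 ± 0.190 CPM after PBS and 466 ± 98.6 CPM after E. coli in ccl34b.1+ cells (SD, n = 4 and 3), while in ccl34b.1- cells it was 268 and 101 CPM (edgeR interaction 9.96 ± 1.05, SE, adjusted p = 8.54e-07). After E. coli the ccl34b.1+ libraries thus exceeded the ccl34b.1- mean from which they had differed in the other direction after PBS. A like pattern was measured for sema4ab, at 284 and 147 CPM in ccl34b.1- cells (5.37 ± 0.77, SE, adjusted p = 0.000386). AIF1L and marcksl1a, a MARCKS-like regulator of actin at the membrane, also had higher levels in ccl34b.1- than ccl34b.1+ cells after PBS. AIF1L was at 727 and 499 CPM in ccl34b.1- cells (3.78 ± 0.70, SE, adjusted p = 0.00785), and marcksl1a at 850.0 and 718 CPM there against 434 ± 199 and 2642 ± 293 CPM in ccl34b.1+ cells (2.85 ± 0.53, SE, adjusted p = 0.00785). The control ccl34b.1+ libraries of marcksl1a were at 958 and 850 CPM, above its PBS libraries. Against them its log2 fold change after E. coli was 1.55 (edgeR, adjusted p = 0.116). The lysozyme gene lygl1 rose in both gates, from 453 to 1461 CPM in ccl34b.1- cells (log2 fold change 1.69 ± 0.35), and by more in ccl34b.1+ cells (2.72 ± 0.50, SE, adjusted p = 0.00785).

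Responses of the stress genes XBP1 and DDIT3 differed too. XBP1 was at 2692 and 4055 CPM in ccl34b.1- cells (-2.55 ± 0.42, SE, adjusted p = 0.00254) and DDIT3 at 1073 and 1206 CPM (-2.88 ± 0.53, SE, adjusted p = 0.00785). TTYH3 (ENSDARG00000034473) was at 191 and 149 CPM there (-6.32 ± 0.95, SE, adjusted p = 0.000692). For a pair of chemokine genes the response of ccl34b.1- cells was the higher one: cxcl8b.1 was at 0.500 and 66.0 CPM in ccl34b.1- cells (-11.05 ± 1.99, SE, adjusted p = 0.00785), and cxcl11.5 at 5.30 and 823 CPM (-7.02 ± 1.28, SE, adjusted p = 0.00785), where ccl34b.1+ cells had 9.52 ± 13.2 and 11.6 ± 8.03 CPM. In ccl34b.1+ cells the control libraries of cxcl8b.1 were at 15.2 and 25.6 CPM, below every PBS library and within the E. coli range. The cxcl8b.1 difference had an adjusted p of 0.0795 without PBS library 2, and that of cxcl11.5 one of 0.0506 without E. coli library 2. The other 8 of these 10 genes passed without each of the 7 ccl34b.1+ libraries in turn.

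**Figure D4:**
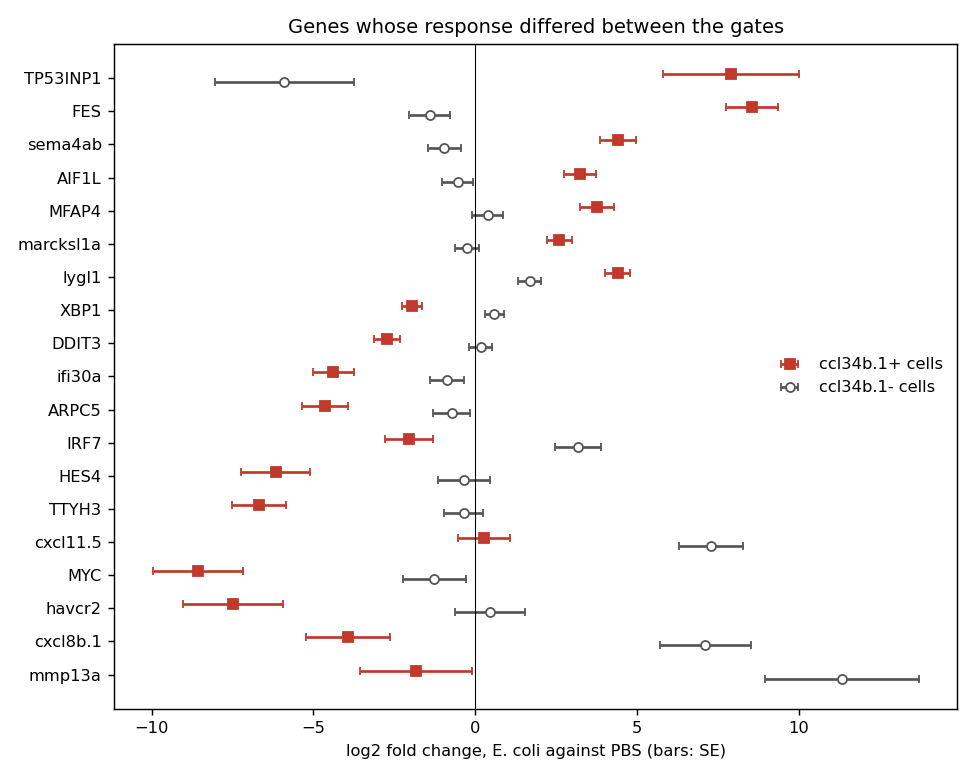
Log2 fold change of E. coli against PBS with its SE, in ccl34b.1+ cells (red squares, 3 against 4 libraries) and ccl34b.1- cells (open circles, 3 against 4 libraries), for the 19 named genes whose responses differed between the gates. Genes at the top, from TP53INP1 to lygl1, are higher in the ccl34b.1+ response and those below are lower, with cxcl8b.1 and cxcl11.5 raised in ccl34b.1- cells.

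Untreated fish of 4 months, which entered none of these fits, gave the position of the called genes between the gates, as a description without a test. Of the 101 genes that fell after E. coli, 63 (62.4%) had a higher mean log2 CPM in ccl34b.1+ than in ccl34b.1- cells and 36 had all 5 ccl34b.1+ libraries above all 5 ccl34b.1- libraries. Over all 12421 genes tested, the numbers were 7482 (60.2%) and 461. The called sets were chosen on levels in ccl34b.1+ cells and were not matched for level to all genes, whose median was 8.64 CPM after PBS. Genes near the floor can seldom separate fully, so such counts cannot be read as a trait of a called set. Of the 87 genes that rose, 45 (51.7%) had a higher mean in ccl34b.1- cells, against 37.2% of all genes tested, and 11 had all ccl34b.1- libraries above all ccl34b.1+ libraries, against 268 of all genes tested. For 5 of the risers all ccl34b.1+ libraries lay above all ccl34b.1- libraries, and for 5 of the genes that fell the reverse held. Over all 12421 genes tested these numbers were 461 and 268.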

How the data were processed

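The authors deposited raw counts per gene for 28 Smart-seq2 libraries, with no molecular identifiers, so intervals and floors cover counting error only. Per the labels' protocols, cDNA was amplified in 24 and libraries in 12 PCR cycles, and the submitters' processing notes name STAR, featureCounts, DESeq2, GRCz11 and danRer11 without versions. Of 32520 gene IDs, 29201 (89.8%) were matched to a symbol in the gene name table; no sequences were used.

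A single edgeR model (version 4.0.16, under R 4.3.3) held the 18 control, PBS and E. coli libraries in 6 groups. Low genes were dropped by filterByExpr, libraries scaled by TMM, and each contrast tested two-sided by the robust quasi-likelihood method, with Benjamini-Hochberg adjustment over the 12421 genes left. The interaction of gate and treatment came from the same fit. CPM uses scaled library sizes. For groups with 0 counts a bound was computed from a floor of 3 counts over the group, and for 1 to 3 counts a ratio with its 95% interval. Both use counts summed over the libraries of a group, so they leave out the spread between fish. The fit and its contrast of E. coli against PBS in ccl34b.1+ cells were run on simulated data, with changes placed only in genes well above the floor. Counts were drawn with the spreads that the fit itself had estimated. Rises from near 0 counts, as in some named genes, were not simulated, and the outcome is not used as support here. The interaction and the ccl34b.1- contrast were not simulated.

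Members and lists were chosen with earlier results of these data known. A gene that the naming rule picks is not reported here. Of 1747 list symbols, 1240 (71%) matched an ID. Named genes were the sort genes, the 15 largest rises and 15 largest falls among called genes with a proper symbol, a higher group mean of 20 CPM or more and separate libraries, the 4 smallest adjusted p-values of each list, the 10 smallest of the interaction with a mean of at least 20 CPM in a group, and defining markers. Alternatives were DESeq2 1.42.0, limma 3.58.1 voom with quality weights, other filters, scaling, comparators and library sets, replicate blocks, and each library left out. Each fish gave both gates, per the series' design, and libraries of the gates with equal numbers were taken to come from the same fish. Deviations of such pairs correlated at r = 0.003 to 0.034, and those of pairs with unlike numbers at r = -0.036 to 0.021. These ranges overlap, so the values do not settle the pairing. PBS and E. coli fish were different animals that share only a number.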

Additional observations from a re-analysis of the deposited data

Results flagged for a closer look

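In the 4 PBS libraries, 80 sets of values were searched for a library far from the other 3, and 5 were found, where chance gives about 1 in 20. The total of PBS library 1 was 7.79 M counts, against 3.14 M to 3.25 M in the others. MACROH2A2 was at 99.85 CPM in PBS library 4, against 39.15 to 45.75 CPM. MYD88 was at 570.3 CPM in PBS library 2, against 1025 to 1114 CPM. The level of cd68 was 700.2 CPM in PBS library 3, against 153.5 to 236.1 CPM. For sdcbp2, PBS library 2 was at 595.4 CPM, against 325.7 to 352.3 CPM.

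The responses of 19 named genes differed between ccl34b.1+ and ccl34b.1- cells by edgeR's interaction test. On the log2 scale, the ccl34b.1+ response exceeded the other by 13.81 for TP53INP1, 9.96 for FES, 5.37 for sema4ab, 3.78 for AIF1L, 3.37 for MFAP4 (ENSDARG00000089667), 2.85 for marcksl1a and 2.72 for lygl1. More negative values in ccl34b.1+ cells were -2.55 for XBP1, -2.88 for DDIT3, -3.52 for ifi30a, -3.92 for ARPC5 (ENSDARG00000019062), -5.22 for IRF7, -5.82 for HES4 and -6.32 for TTYH3 (ENSDARG00000034473). The largest of these were -7.02 for cxcl11.5, -7.31 for MYC (ENSDARG00000007241), -7.94 for havcr2, -11.05 for cxcl8b.1 and -13.18 for mmp13a. For mmp13a the means after PBS and E. coli were 3.11 and 0.841 CPM in ccl34b.1+ cells and 0.0282 and 191 CPM in ccl34b.1- cells. Its ccl34b.1- E. coli libraries were uneven, at 0, 525 and 49.0 CPM. IRF7 likewise had means of 117 and 1056 CPM in ccl34b.1- cells.

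In the edgeR fits that each left out 1 of the 7 ccl34b.1+ libraries, the differences of AIF1L, DDIT3, FES, lygl1, marcksl1a, sema4ab, TTYH3 and XBP1 passed in all 7, and those of havcr2 (adjusted p = 0.0655 to 0.177) and TP53INP1 (adjusted p = 0.0513 to 0.115) in none. Those of mmp13a (adjusted p = 0.0488 to 0.172) and MYC (0.0469 to 0.18) passed in 1, those of HES4 (0.0213 to 0.115) and ifi30a (5.75e-05 to 0.107) in 2, those of ARPC5 (0.0274 to 0.126) and MFAP4 (0.0174 to 0.103) in 3, that of IRF7 (0.0174 to 0.11) in 5, and those of cxcl11.5 (0.0047 to 0.0506) and cxcl8b.1 (0.00674 to 0.0795) in 6. The difference of ifi30a was -4.95 without E. coli library 1. With fish as a block, edgeR's adjusted p was 0.0571 for HES4, 0.736 for havcr2 and 0.146 for mmp13a, and the other 16 passed. These responses share their PBS and E. coli fish, and no ccl34b.1- library was left out in turn.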

How the results depend on the processing

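The edgeR count of 188 genes stayed within 1.5 times under DESeq2 size factors (190), a mean of at least 10 CPM (236) and controls in place of PBS (152). Of the 188, 186, 181 and 119 were among them in turn, and against controls 39 were higher and 113 lower, a share of 25.7% higher. It was 284 with no filter (168 of the 188 among them), 974 with DESeq2's own test (270 higher and 704 lower, a share of 27.7% higher against 46.3%), 676 with voom quality weights (129 of the 188 among them), 103 against a log2 threshold of 1, 320 with the 7 libraries compared alone (156), 434 with the 9 ccl34b.1+ libraries (173) and 287 with PBS and controls joined. Leaving out each library gave 101 to 162 genes, of which 98 to 150 were among the 188, and the lowest count was without E. coli library 2. Of the 188, 80 were called in all 7 of these fits and all kept their sign. A replicate block by number gave 162 genes with 18 libraries and 220 with 7, where the number pairs no fish. The gate interaction (34 genes) gave 146 with no filter, 595 with DESeq2's test, 105 with the block by fish and 14 to 28 with 1 library left out. The HSP90AA1 log2 fold change reversed to -0.086 against controls. The median of all genes was -0.185 with TMM and -0.188 with DESeq2 size factors. The cause of these differences was not tested. With 100 cells per library, groups of 3 and 4 and few counts for many genes, an adjusted p that missed the threshold does not show equal levels.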
